A study of Mus musculus with 24 samples.

Results

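Collagens and laminins are the structural proteins of the extracellular matrix, and the mouse kidney RNA examined here was searched for every gene that encodes one of their chains. The members are all protein-coding genes whose symbol is Col followed by a type number, the letter a and a chain number, or Lama, Lamb or Lamc followed by a number. The table held 55 such genes among 40750 genes in all, 44 for collagen chains and 11 for laminin chains. The symbols alone decided which genes are members, although the family itself was chosen with earlier results of these data known.

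The animals were male mice of mixed background, 8 to 10 weeks old, with the genotype Kim1-GCE+/-; EGFPL10a+/-, and all groups shared these alleles. Cre expressed from the Kim1 (Havcr1) locus after tamoxifen switches on a GFP-tagged ribosomal protein, and anti-GFP beads then pull down the ribosomes, with their RNA, of the cells that carried the tag. That RNA is called bound, and the RNA left behind, called unbound, stands for the total kidney. In the injured mice both renal pedicles were clamped for 20 minutes and kidneys were taken on day 2, 7 or 14, while sham mice had the same operation with no clamp. Tamoxifen was given 6 h before and 24 h after surgery. Each of the 4 times had 3 mice, and each mouse gave 1 bound and 1 unbound library, so 12 mice gave 24 libraries in 8 groups of 3. Kim1 is a gene of injured proximal tubule that is low in the uninjured kidney, so few tagged cells are present after sham surgery, which limits the sham bound libraries as a reference.

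A collagen molecule is a triple helix of 3 chains wound together in the endoplasmic reticulum, where prolines and lysines are hydroxylated, and it is trimmed and cross-linked after secretion. Type I, III and V collagens form the fibrils of the interstitium and of scar, type IV collagen forms the sheet of every basement membrane, type VI collagen forms beaded filaments around cells, and types XV and XVIII sit between basement membrane and interstitium. Laminins are cross-shaped heterotrimers of 1 alpha, 1 beta and 1 gamma chain that start basement membrane assembly and bind integrins on epithelial cells. In the kidney the tubular basement membrane holds the type IV chains encoded by Col4a1 and Col4a2, and the filtering membrane of the glomerulus matures to the chains encoded by Col4a3, Col4a4 and Col4a5.

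The values are RPKM, which are read counts scaled to the length of the gene and to the depth of the library. This scaling leaves shifts between whole libraries in place. Against sham the median of all genes tested was shifted by 0.13 to 0.22 (log2). Of the 55 members, 30 reached at least 1 RPKM in at least 3 of the 24 libraries and were tested, 20 collagen and 10 laminin genes. Of these, 19 passed that limit on the sham libraries alone. The other 11 passed it only through injured libraries, namely Col5a1, Col5a2, Col5a3, Col6a2, Col6a3, Col8a1, Col15a1, Col16a1, Lama4, Lamb3 and Lamc3, so a rise in those 11 was partly needed for them to be tested at all. Differences are given on the log2(RPKM + 0.5) scale from a limma fit across 13721 genes, with its standard error (SE) and a Benjamini-Hochberg adjusted p over those genes, and "called" means an adjusted p under 0.05. The added 0.5 makes the fold smaller for low genes. In bulk RNA, a changed number of cells and a changed amount of RNA per cell cannot be told apart.

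Several of the genes described below sit beside a partner on the chromosome, and their start regions are given here for reference to the paired changes. Sequences and windows are RefSeq's on GRCm38.p6, where 40 of the 55 members had an entry, and distances are from GENCODE M21 on GRCm38. Col4a1 and Col4a2 lie head to head on chromosome 8, overlap at their 5′ ends with starts 21 bases apart, and so share their promoter region. Col4a4 and Col4a3 lie head to head on chromosome 1 with starts 72 bases apart. Col4a6 and Col4a5 lie head to head on the X chromosome with starts 1309 bases apart. The 3 stretches are printed 5′ to 3′ in the direction of the gene named first, ending at its start: the 250 bases before the starts of Col1a2 and Col3a1, which with Col1a1 are fibrillar genes called higher on day 2 in both fractions, and the 71 bases between the Col4a4 and Col4a3 starts. The first is chr6:4505368-4505617 on the plus strand, the next chr1:45311288-45311537 on the plus strand and the last chr1:82586850-82586920 on the minus strand. Capitals mark a match to the CCAAT box, to the GC box GGGCGG or to the TATA box TATAAA, each searched on both strands. None of these motifs overlapped another in the printed stretches.
Col1a2: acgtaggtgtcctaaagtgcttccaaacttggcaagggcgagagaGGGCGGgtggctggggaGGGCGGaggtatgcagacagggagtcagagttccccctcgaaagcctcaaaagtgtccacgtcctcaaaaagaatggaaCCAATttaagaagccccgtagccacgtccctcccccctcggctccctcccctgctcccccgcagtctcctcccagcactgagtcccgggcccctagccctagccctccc
Col3a1: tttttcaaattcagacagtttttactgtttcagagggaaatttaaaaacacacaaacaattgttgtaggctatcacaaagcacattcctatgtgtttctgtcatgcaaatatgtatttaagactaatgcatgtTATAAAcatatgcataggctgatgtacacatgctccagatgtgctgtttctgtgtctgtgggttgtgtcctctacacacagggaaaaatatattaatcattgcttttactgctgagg
Col4a4 to Col4a3: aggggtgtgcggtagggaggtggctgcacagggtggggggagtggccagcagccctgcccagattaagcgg

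In the printed stretches, Col1a2 held 1 CCAAT and 2 GGGCGG, Col3a1 held 1 TATAAA, and the Col4a4 to Col4a3 stretch held none of the 3 motifs. Over full windows of 300 bases (250 before and 50 after a start), 37.4% of 32851 RefSeq windows held CCAAT, 35.7% held GGGCGG and 13.6% held TATAAA on either strand. The 40 members with an entry had 44 windows, of which 14 held CCAAT, 26 held GGGCGG and 5 held TATAAA. Counted by gene, 14, 25 and 5 of the 40 members held them in at least 1 window. A match in these letters is a description of the sequence, and neither a match nor its absence says whether a factor binds there.

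The tag was checked first. Havcr1 lay between 1.49 and 5.62 RPKM in the sham bound libraries and between 50.5 and 211 RPKM on day 2, 131 and 248 RPKM on day 7 and 21.7 and 53.6 RPKM on day 14 in bound RNA. In unbound RNA it lay between 3.93 and 24.1 RPKM after sham surgery and between 84.5 and 151 RPKM on day 2, 38.1 and 125 RPKM on day 7 and 18.4 and 34.3 RPKM on day 14. Havcr1 was not called between bound and unbound RNA at any time, with differences of -1.47 after sham surgery and -0.19, 1.34 and 0.52 on days 2, 7 and 14 (adjusted p = 0.0799, 0.909, 0.281 and 0.825, limma). Podocyte markers were higher in sham bound than in sham unbound RNA for 11 of 12 tested markers, with summed levels of 163 to 586 RPKM against 40.7 to 48.4 RPKM, and 9 of 12 proximal tubule markers were lower there. The deposited values imply a depth of 15720000 to 24650000 counted reads per library. The third day 14 mouse stood apart: its bound library was the highest of its group for 29 of the 30 tested members and its unbound library for 26 of 30, so the day 14 calls against sham are given with and without its libraries.

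The fibrillar collagens made the largest rise. On day 2 in bound RNA the estimates for Col1a1 and Col3a1 were the largest of the 30 tested members, and the lowest day 2 library lay several-fold above the highest sham library for both. Col1a1, which encodes the alpha1 chain of type I collagen, was at 4.02, 3.24 and 2.36 RPKM in the sham bound libraries and at 110, 347 and 41.6 RPKM in the day 2 bound libraries. It rose by 5.01 on the log2 scale (SE 0.82, adjusted p = 0.000268, limma, n = 3 mice a group). In unbound RNA Col1a1 was at 3.25, 1.79 and 2.78 RPKM after sham surgery and 44.5, 62.0 and 29.2 RPKM on day 2, a rise of 3.85 (SE 0.82, adjusted p = 0.00331). The groups did not overlap in either fraction, and the second day 2 mouse was the highest in both.

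Col3a1, the single chain of type III collagen, which forms thin fibrils together with type I, followed the same course. Its bound levels were 1.77, 1.27 and 0.996 RPKM after sham surgery and 35.4, 110 and 18.9 RPKM on day 2, a rise of 4.55 (SE 0.89, adjusted p = 0.00133). Its unbound levels were 1.31, 0.542 and 1.44 RPKM after sham surgery and 17.3, 28.7 and 18.0 RPKM on day 2, a rise of 3.79 (SE 0.89, adjusted p = 0.00673). Across the 8 groups the mean ratio of Col3a1 to Col1a1 RPKM lay between 0.363 and 0.599, with the highest group mean on day 14 in bound RNA, where the third mouse alone reached 0.901.

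**Figure D1:**
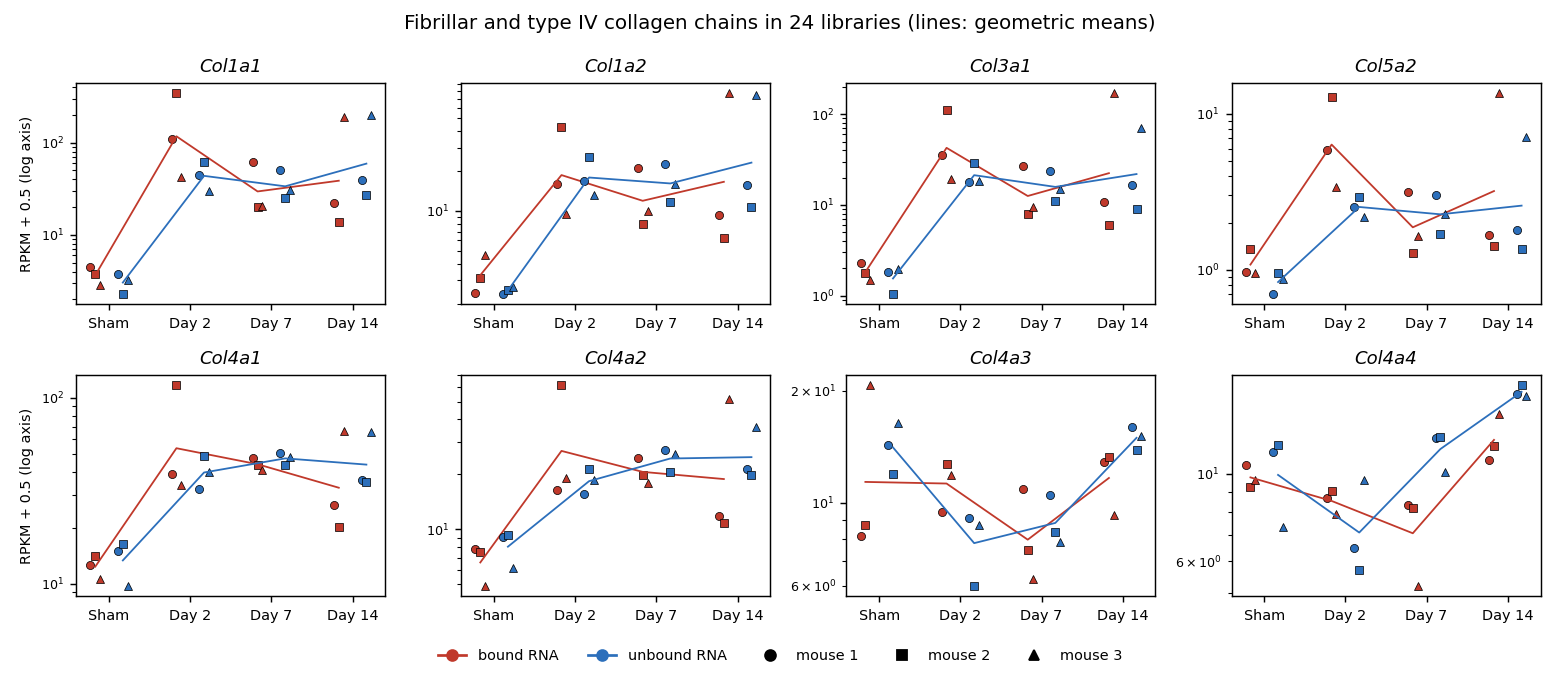
RPKM + 0.5 on a log axis for 8 collagen genes in each of the 24 libraries by time, with bound RNA in red and unbound RNA in blue. Symbols are the 3 mice of each time (different mice at different times), and lines join the geometric means of each fraction. Col1a1 and Col3a1 are higher in every injured library than in any sham library of the same fraction, while Col4a3 lies between 5.49 and 20.2 RPKM and Col4a4 between 4.70 and 16.3 RPKM.

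Col1a2, which encodes the partner chain of Col1a1 in type I collagen, rose less than Col1a1 in bound RNA. It was at 1.92, 2.64 and 4.14 RPKM after sham surgery and at 15.5, 42.2 and 9.03 RPKM on day 2 in bound RNA, a rise of 2.51 (SE 0.74, adjusted p = 0.0215). After sham surgery the unbound libraries were at 1.87, 2.01 and 2.18 RPKM, and on day 2 at 16.4, 25.0 and 12.8 RPKM, a rise of 2.83 (SE 0.74, adjusted p = 0.0134). The bound rise was therefore the larger one for Col1a1 and the smaller one for Col1a2, and neither of those differences between fractions was called by the interaction test.

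The ratio of the type I chains showed this library by library. Col1a1 to Col1a2 was 4.61, 7.13 and 8.22 in the 3 day 2 bound libraries, in ascending order, against 2.28, 2.48 and 2.72 in the day 2 unbound libraries of the same mice. Outside the day 2 bound group the ratio never exceeded 2.98 in any library. The exact two-sided permutation test gave p = 0.1 for day 2 bound against day 2 unbound, which is the smallest p that 3 against 3 libraries can give. Adjusted over the 20 ratio comparisons made, that p was 0.2. The test between fractions treated the libraries as unpaired, although both fractions came from the same 3 mice, so its p ignores the pairing. With sham bound, where the ratio lay between 0.570 and 2.10, the exact p was also 0.1. In sham unbound RNA the ratio lay between 0.889 and 1.74, under all day 2 unbound libraries (log2 difference 0.989, exact permutation p = 0.1). On day 14 the ratio was slightly lower in bound than in unbound RNA (log2 difference -0.122, exact permutation p = 0.1).

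The type V chains, which nucleate type I fibrils, were near or under 1 RPKM after sham surgery. Col5a1 was at 0.477, 0.497 and 0.396 RPKM in sham bound RNA and at 3.26, 7.21 and 1.39 RPKM on day 2, a rise of 1.99 (SE 0.58, adjusted p = 0.02). Col5a2 was at 0.472, 0.858 and 0.452 RPKM in sham bound RNA and at 5.38, 12.4 and 2.88 RPKM on day 2, a rise of 2.56 (SE 0.67, adjusted p = 0.0105). Both genes had groups with no overlap on day 2 in bound RNA. In unbound RNA Col5a1 had an estimate of 1.66 (adjusted p = 0.0579) and Col5a2 one of 1.60, neither called. Col5a3 rose in both fractions on day 2, by 1.60 in bound (SE 0.36, adjusted p = 0.00409) and 1.22 in unbound RNA (SE 0.36, adjusted p = 0.0268). Col27a1, a fibrillar chain of cartilage and developing tissue, was not called at any time, with estimates from -0.41 to 0.61.

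The network collagens of the basement membrane split by chain. Col4a1, the alpha1 chain of the common type IV network, was at 12.2, 13.6 and 10.1 RPKM in sham bound RNA and at 38.3, 117 and 33.4 RPKM on day 2, a rise of 2.12 (SE 0.40, adjusted p = 0.00104). Its unbound levels were 14.4, 15.9 and 9.24 RPKM after sham surgery and 31.7, 48.3 and 39.4 RPKM on day 2, a rise of 1.57 (SE 0.40, adjusted p = 0.0117). Col4a1 was called higher than sham at all 3 times in both fractions, as was Col1a1; no other tested member was called in all 6 comparisons. In the day 7 bound libraries Col4a1 was at 47.2, 43.4 and 40.3 RPKM, the narrowest of its injured bound groups, a rise of 1.83 (adjusted p = 0.00343).

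Col4a2, the partner chain transcribed from the shared start region, was at 7.31, 6.97 and 4.39 RPKM in sham bound RNA and at 16, 61.3 and 18.6 RPKM on day 2, a rise of 2.03 (SE 0.47, adjusted p = 0.00514). It was also called in bound RNA on day 7 (1.65, adjusted p = 0.0170) and day 14 (1.52, adjusted p = 0.0392). In unbound RNA its estimates of 1.19, 1.60 and 1.63 on days 2, 7 and 14 had adjusted p of 0.0944, 0.101 and 0.0824, with no overlap of libraries at any of the 3 times. The ratio of Col4a1 to Col4a2 stayed between 1.27 and 2.40 in all 24 libraries.

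Col4a3 and Col4a4, the glomerular chains whose starts lie 72 bases apart, were not called against sham at any time in either fraction. Col4a3 was at 7.65, 8.24 and 20.2 RPKM in sham bound RNA and at 8.95, 12.2 and 11.4 RPKM on day 2, and the groups overlapped. In unbound RNA it was at 13.8, 11.4 and 15.8 RPKM after sham surgery and at 8.59, 5.49 and 8.22 RPKM on day 2, with no overlap, an estimate of -0.85 (adjusted p = 0.0525) that missed the threshold. After median-ratio rescaling that estimate was -1.07 and called lower (adjusted p = 0.0171), and after quantile normalization -0.99 and called lower (adjusted p = 0.0324). Col4a4 was at 10.0, 8.76 and 9.13 RPKM in sham bound RNA and at 8.20, 8.56 and 7.39 RPKM on day 2, an estimate of -0.20 (adjusted p = 0.574). Col4a5, the X-linked chain that joins these in the glomerular membrane, stayed between 0.705 and 2.76 RPKM in all libraries and was not called at any time. Col4a6, its neighbour, was not tested.

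The balance within type IV differed accordingly. The summed RPKM of Col4a1 and Col4a2 over that of Col4a3 and Col4a4 was 0.936 ± 0.386 (SD, n = 3) in sham bound RNA and 4.84 ± 3.25 on day 2, 4.58 ± 0.847 on day 7 and 2.71 ± 2.19 on day 14. In unbound RNA it was 0.893 ± 0.219 after sham surgery and 4.33 ± 1.86, 3.68 ± 0.566 and 2.35 ± 0.889 on days 2, 7 and 14. Single mice weighed on the bound means: without the second day 2 mouse the day 2 mean was 2.97, and without the third day 14 mouse the day 14 mean was 1.45. The libraries of day 2 and sham did not overlap in either fraction, with an exact two-sided permutation p of 0.1 each, the smallest possible. Adjusted over the 20 ratio comparisons, each p was 0.2.

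The other collagens that rose are found between and around basement membranes. Col15a1 encodes type XV collagen of the vessel and muscle basement membrane zone. It was at 0.631, 0.665 and 0.479 RPKM in sham bound RNA and at 3.50, 10.4 and 1.93 RPKM on day 2, a rise of 2.12 (SE 0.63, adjusted p = 0.0219). The unbound libraries were at 0.954, 0.973 and 0.587 RPKM after sham surgery and at 4.68, 8.28 and 3.89 RPKM on day 2, a rise of 2.14 (SE 0.63, adjusted p = 0.0255). Neither fraction overlapped its sham libraries. Col18a1, whose type XVIII collagen releases the fragment endostatin, was at 7.99, 12.1 and 17.5 RPKM in sham bound RNA and at 22.8, 36.6 and 29.5 RPKM on day 2, a rise of 1.25 (SE 0.39, adjusted p = 0.0264). In unbound RNA Col18a1 rose from 9.83, 11.4 and 6.15 RPKM to 21.1, 27.3 and 29.9 RPKM, by 1.5 (SE 0.39, adjusted p = 0.0121).

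Type VI collagen is built from the products of Col6a1, Col6a2 and Col6a3. Col6a2 was at 0.502, 0.590 and 0.131 RPKM in sham bound RNA and at 2.28, 5.16 and 0.924 RPKM on day 2, 3.11, 2.72 and 1.95 RPKM on day 7 and 1.58, 1.03 and 8.42 RPKM on day 14. It was called higher in bound RNA at all 3 times, by 1.67, 1.79 and 1.79 (adjusted p = 0.0317, 0.0206 and 0.0326). Col6a1 had estimates of 1.56, 1.59 and 1.70 there that missed the threshold (adjusted p = 0.0618, 0.0514 and 0.0548), and Col6a3 estimates of 1.29, 0.62 and 0.87. None of the 3 was called in unbound RNA, where their estimates lay between 1.17 and 1.98. Col8a1, a short-chain collagen of vessel wall and corneal membrane, rose on day 2 in both fractions, by 1.64 in bound (SE 0.47, adjusted p = 0.0172) and 1.41 in unbound RNA (SE 0.47, adjusted p = 0.0459). Col14a1 and Col16a1, which belong to the fibril-associated collagens, were not called at any time.

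The make-up of collagen RNA differed between sham and day 2. Type IV chains held 56.4% ± 3.1 (SD, n = 3) of the summed collagen RPKM in sham bound RNA and 29.2% ± 7.0 on day 2. Fibrillar chains held 14.4% ± 2.5 of it after sham surgery and 54.9% ± 13.2 on day 2. In unbound RNA type IV held 64.0% ± 1.2 after sham surgery and 34.5% ± 4.4 on day 2 and fibrillar chains 10.8% ± 2.4 and 41.8% ± 6.8, and the libraries of day 2 did not overlap those of sham for either class. On day 7 the fibrillar share was 31.7% ± 10.4 in bound and 31.8% ± 5.0 in unbound RNA. Summed collagen RPKM was 63.8 to 81.7 in sham bound RNA and 193 to 807 on day 2, while summed laminin RPKM was 23.9 to 38.7 and 34.4 to 37.1.

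**Figure D2:**
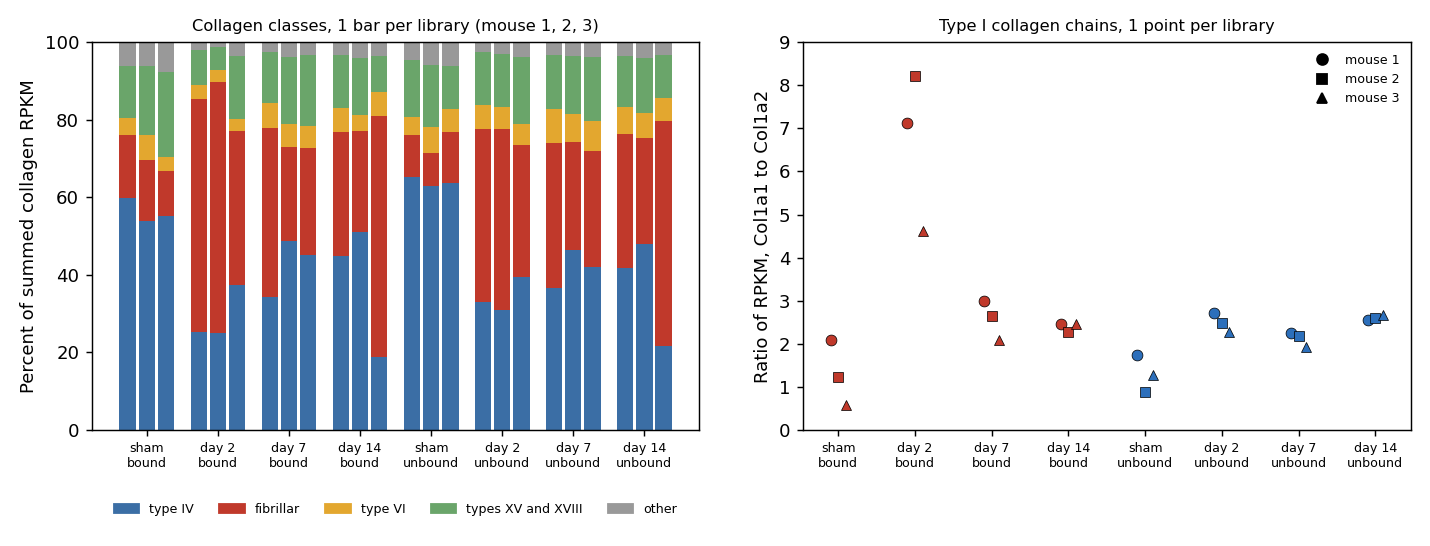
Left, percent of the summed collagen RPKM held by each collagen class, with 1 stacked bar per library and the 3 mice of a group side by side. Right, ratio of Col1a1 to Col1a2 RPKM, with 1 point per library. Fibrillar chains hold 39.9% to 64.8% in the day 2 bound libraries against 11.6% to 16.1% in sham bound, and the ratio is 4.61 to 8.22 in the day 2 bound libraries and at most 2.98 in the others.

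The laminin estimates were smaller than those of the collagens on day 2 in bound RNA. In bound RNA on day 2, where 13.3% of all genes tested were called higher and 6.48% lower, 12 of 20 tested collagens were called higher and none lower, while 1 of 10 tested laminins was called higher and 1 lower, a share near the background. In bound RNA 1 of 10 laminins was called higher on day 7 and 1 on day 14, against 15.2% and 8.71% of all genes. In unbound RNA 2 of 10 were called higher on day 2, against 9.76% of all genes, and none on days 7 and 14. The median estimate on day 2 in bound RNA was 1.62 for the collagens, 0.34 for the laminins and 0.16 for all genes tested. On day 2 in unbound RNA these medians were 1.36, 0.54 and 0.20. The counts and medians of both families include the 11 members that passed the expression limit only through injured libraries. On day 2 in bound RNA those 11 had a median of 1.60 with 6 called higher, and the other 19 a median of 0.48. The 6 were Col5a1, Col5a2, Col5a3, Col6a2, Col8a1 and Col15a1, so the gap between collagens and laminins rests in part on them. Lamb1, the most abundant laminin gene in sham kidneys, was at 8.93, 13.1 and 10.6 RPKM in sham bound RNA and at 11, 9.55 and 6.53 RPKM on day 2, an estimate of -0.27 (adjusted p = 0.552). Lamc1, the gamma chain of most kidney laminins, was at 1.63, 1.97 and 3.01 RPKM in sham bound RNA and at 3.67, 5.10 and 3.42 RPKM on day 2, an estimate of 0.77 (adjusted p = 0.0754) with no overlap.

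Lama1, the alpha chain of the early embryonic laminin that persists in tubular basement membranes, was the only tested member called lower at any time. It was at 4.06, 7.40 and 3.11 RPKM in sham bound RNA and at 3.30, 1.80 and 0.461 RPKM on day 2, a difference of -1.32 (SE 0.39, adjusted p = 0.0219). The groups overlapped, since the first day 2 mouse was above the lowest sham mouse, and without the third day 2 bound library the estimate was -0.78 (adjusted p = 0.167). In unbound RNA Lama1 was lower to start with, at 1.81, 1.47 and 1.66 RPKM after sham surgery and 1.31, 1.15 and 0.827 RPKM on day 2, an estimate of -0.44 (adjusted p = 0.476).

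Lamb3, a beta chain of the epithelial laminin of hemidesmosomes, was called in bound RNA on days 7 and 14. It was at 0.459, 0.266 and 0.938 RPKM in sham bound RNA, at 0.954, 1.28 and 3.41 RPKM on day 2 (1.08, adjusted p = 0.0870), at 1.82, 1.54 and 3.81 RPKM on day 7 (1.42, SE 0.44, adjusted p = 0.0246) and at 1.87, 0.938 and 5.31 RPKM on day 14 (1.41, SE 0.44, adjusted p = 0.0393). In unbound RNA Lamb3 was at 0.0712, 0.0871 and 0.0610 RPKM after sham surgery and at 0.761, 1.02 and 1.15 RPKM on day 2, a rise of 1.36 (SE 0.44, adjusted p = 0.0424). Lama3, the alpha chain of the same laminin, was not called at any time, with estimates between -0.25 and 0.44.

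**Figure D3:**
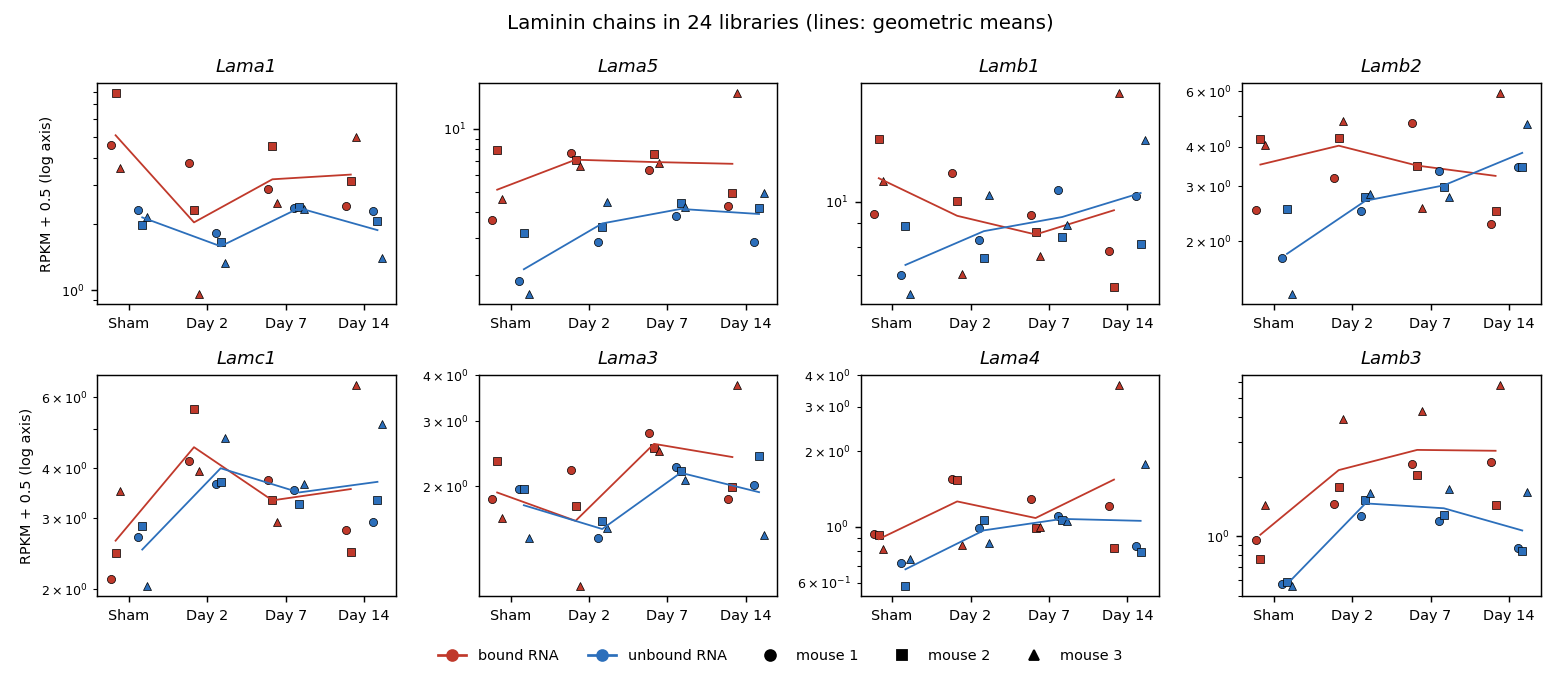
RPKM + 0.5 on a log axis for 8 laminin genes in each of the 24 libraries by time, with bound RNA in red and unbound RNA in blue. Symbols are the 3 mice of each time (different mice at different times), and lines join the geometric means. Lama5 is higher in bound than in unbound RNA in sham kidneys, and the Lamb3 points of bound RNA are high on days 7 and 14.

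The counts over all tested members are read against the share of all 13721 genes called in the same comparison. On day 2 in bound RNA 13 of 30 members were called higher and 1 lower, against 13.3% of all genes called higher and 6.48% called lower. The collagens among them were Col1a1, Col1a2, Col3a1, Col4a1, Col4a2, Col5a1, Col5a2, Col5a3, Col6a2, Col8a1, Col15a1 and Col18a1. Among the 19 members that passed the expression limit on sham libraries alone, 7 were called higher and 1 lower, with a median of 0.48. The count rests in part on the second day 2 mouse: without its bound library 5 members were called. Col1a1, Col3a1, Col4a1 and Col5a3 were called with any 1 of these 6 libraries left out. The share of all genes called with 1 library left out is not given here, so such counts have no background beside them.

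On day 7 in bound RNA 9 of 30 members were called higher and 0 lower, against 15.2% and 7.55% of all genes. The 19 members that passed the expression limit on sham libraries alone held 5 of these calls. The 9 were Col1a1 (3.02, adjusted p = 0.0123), Col3a1 (2.79, adjusted p = 0.0289), Col15a1 (1.84), Col4a1, Col6a2, Col4a2, Lamb3, Col18a1 (1.12) and Col5a3 (1.03). Col1a1 was at 61.9, 19.8 and 20.0 RPKM and Col3a1 at 26.1, 7.36 and 8.94 RPKM in these libraries, with the first mouse highest for both. Without that mouse's bound library 2 members were called, and Col4a1 was the only member called with each of the 6 libraries left out in turn.

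On day 14 in bound RNA 8 of 30 members were called higher and 0 lower, against 8.71% and 4.58% of all genes. The 19 members that passed the expression limit on sham libraries alone held 5 of these calls. Col3a1 was at 10.2, 5.57 and 172 RPKM, a rise of 3.62 (SE 0.89, adjusted p = 0.0127), and Col1a1 at 21.7, 13.2 and 191 RPKM, a rise of 3.41 (SE 0.82, adjusted p = 0.0116). Both genes were above all sham libraries in all 3 mice, and the third mouse was far above the other 2. Col15a1 was at 3.12, 2.27 and 21.3 RPKM, a rise of 2.47 (adjusted p = 0.0148). Col1a2, Col6a2, Col4a2, Col4a1 and Lamb3 made up the 8.

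Without both libraries of the third day 14 mouse, Col1a1 (2.26, adjusted p = 0.0150), Col3a1 (2.15, adjusted p = 0.0142) and Col15a1 (1.54, adjusted p = 0.0179) were still called in bound RNA, and the other 5 were not. These 3 of 30 members, all called higher, stand against 11.04% of all genes called higher and 9.77% called lower in that fit. The share of members called higher was then near the background. The median over the 30 members then fell from 0.82 to 0.26. For Col1a2 the estimate went from 2.34 to 1.23 (adjusted p = 0.0852) and for Col4a2 from 1.52 to 0.79 (adjusted p = 0.156).

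In unbound RNA 10 of 30 members were called higher and 0 lower on day 2, against 9.76% and 5.04% of all genes. They included Col1a1, Col3a1, Col1a2, Col15a1, Col4a1, Col18a1, Col8a1, Lamb3 and Col5a3, in order of their estimates from 3.85 down to 1.22. Of these 10 calls, 6 were among the 19 members that passed the expression limit on sham libraries alone. Without the second day 2 unbound library 2 members were called, Col1a1 and Col3a1.

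In unbound RNA on day 7, 2 of 30 members were called higher and 0 lower, against 0.911% and 0.182% of all genes. Both are among the 19 members that passed the expression limit on sham libraries alone. Col1a1 was at 49.7, 24.5 and 29.95 RPKM, a rise of 3.47 (SE 0.82, adjusted p = 0.0449), and Col4a1 at 49.8, 43.2 and 47.7 RPKM, a rise of 1.82 (SE 0.40, adjusted p = 0.0321). With any 1 of the 6 libraries left out, neither was called. Col3a1, Col1a2 and Col15a1 had estimates of 3.36, 2.68 and 2.45 with adjusted p of 0.0680, 0.0799 and 0.0585, and all 3 lay above every sham library in all mice.

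On day 14 in unbound RNA 6 of 30 members were called higher and 0 lower, against 0.984% and 0.248% of all genes. The 19 members that passed the expression limit on sham libraries alone held 5 of these calls. Col1a1 was at 38.8, 26.4 and 197 RPKM, a rise of 4.29 (SE 0.82, adjusted p = 0.0150), and Col3a1 at 16, 8.50 and 70.3 RPKM, a rise of 3.83 (SE 0.89, adjusted p = 0.0440). Col1a2 (3.2), Col15a1 (2.71), Col4a1 (1.71) and Col18a1 (1.61) were the others. Without both libraries of the third day 14 mouse 4 were called, against 0.641% of all genes, with Col1a1 at 3.42 (adjusted p = 0.0157), while Col4a1 (1.42, adjusted p = 0.0858) and Col18a1 (1.25, adjusted p = 0.0520) were not. Leaving out only that mouse's unbound library ended all 6 calls.

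The libraries of the injured and sham mice can also be compared without a model, by asking whether they overlap. In bound RNA on day 2, 18 of 30 members were above sham in all 3 mice and 1, Col4a4, was below in all 3, against 25.5% of all genes without overlap in either direction. On day 7 there were 17 above and 2 below, against 39.3%, and on day 14 there were 13 above and 0 below, against 22.6%. In unbound RNA there were 19 above and 3 below on day 2 against 44.6%, 25 above and 1 below on day 7 against 38.1%, and 23 above and 0 below on day 14 against 35.9%. All these counts include the 11 members that passed the expression limit only through injured libraries. A rise was partly needed for those 11 to be tested, and no split by that route is given here.

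**Figure D4:**
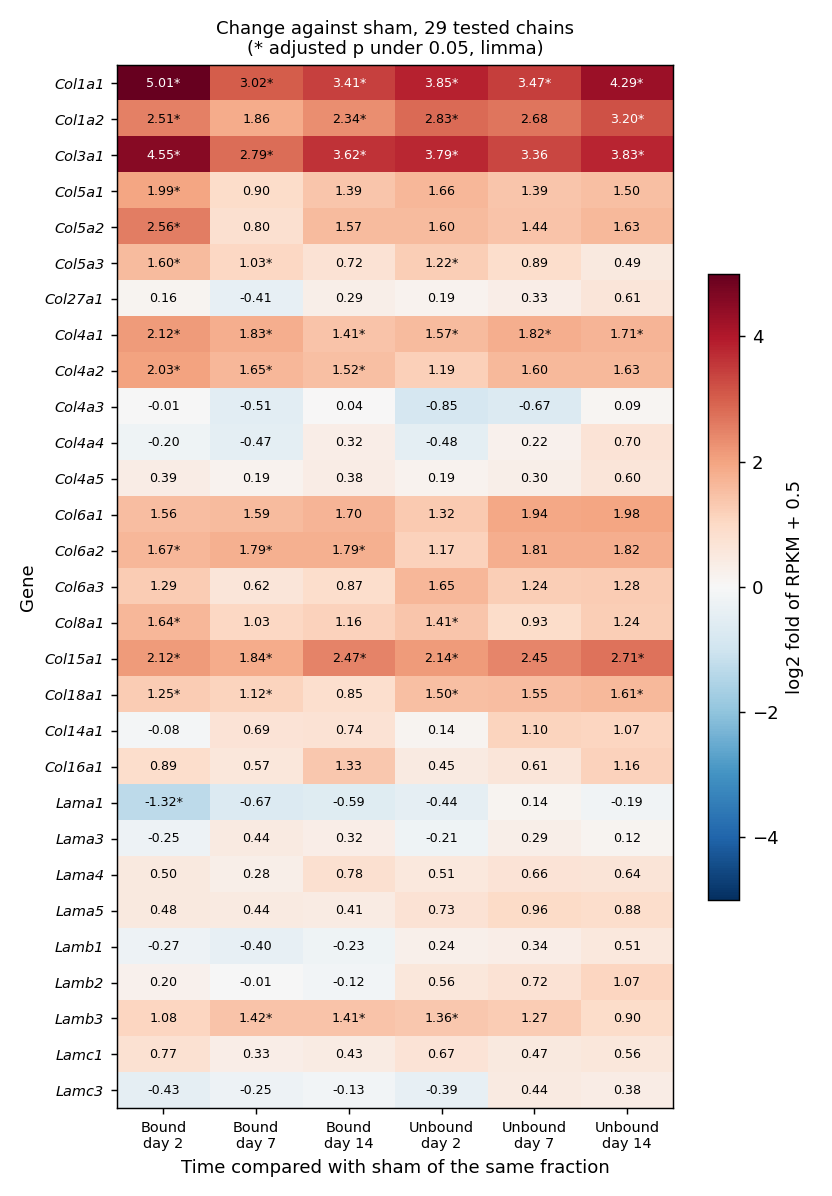
Log2 fold of RPKM + 0.5 against sham of the same fraction for 29 of the 30 tested members (rows) at 3 times in bound and unbound RNA (columns), with red for higher and blue for lower. An asterisk marks an adjusted p under 0.05 in limma. Col1a1 and Col4a1 carry an asterisk in all 6 columns, and Lama1 on day 2 in bound RNA is the only asterisk on a negative value.

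Between successive times no member was called in either fraction (limma), although 4 members in bound RNA from day 2 to day 7 had an unadjusted p under 0.05, 1 from day 7 to day 14, and in unbound RNA 3 and 2. Of all genes, 7.09% and 0% were called for the steps in bound RNA and 3.51% and 0.00729% for those in unbound RNA. From day 2 to day 7 in bound RNA the means went from 166 to 33.9 RPKM for Col1a1 (-1.99, unadjusted p = 0.0246) and from 6.90 to 1.52 RPKM for Col5a2 (-1.76, unadjusted p = 0.0155). Their adjusted p were 0.153 and 0.118. The Col5a2 libraries of the 2 days did not overlap, while those of Col1a1 did.

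Col4a4 had the smallest unadjusted p of any member over these 4 steps and was singled out after its values were seen. In bound RNA it was at 7.82, 7.67 and 4.70 RPKM on day 7 and at 10.4, 11.3 and 13.6 RPKM on day 14, an estimate of 0.79 with no overlap (unadjusted p = 0.00210, adjusted p = 0.389). In unbound RNA it was at 6.00, 5.20 and 9.15 RPKM on day 2, 11.8, 11.9 and 9.59 RPKM on day 7 and 15.4, 16.3 and 15.2 RPKM on day 14. Its partner Col4a3 in unbound RNA was at 9.99, 7.85 and 7.37 RPKM on day 7 and at 15.4, 13.3 and 14.6 RPKM on day 14, which did not overlap (0.76, unadjusted p = 0.0164, adjusted p = 1). The day 14 unbound levels of Col4a3 lay within the range of its sham unbound libraries.

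Between the bound and unbound RNA of sham kidneys only laminins were called, and no collagen had an unadjusted p under 0.05 in limma. Of the 30 members 3 were called higher in sham bound RNA and 0 lower, against 14.6% of all genes called higher and 12.9% lower. The share over both families was under the background, but by family it was 3 of 10 laminins and 0 of 20 collagens. Lama5, the alpha chain of the mature glomerular and tubular laminins, was at 3.16, 7.42 and 4.15 RPKM in sham bound RNA and at 1.38, 2.68 and 1.13 RPKM in the unbound RNA of the same mice, a difference of 1.26 (SE 0.37, adjusted p = 0.0145). Lama1 differed by 1.24 (SE 0.39, adjusted p = 0.0220), with all bound libraries above all unbound ones. Lamb2, the beta chain of the glomerular membrane, was at 2.02, 3.73 and 3.55 RPKM in bound and at 1.27, 2.03 and 0.862 RPKM in unbound RNA, a difference of 0.94 (SE 0.33, adjusted p = 0.0364). With the mouse as a block Lamb1 (0.61, adjusted p = 0.0309) and Lamb3 (0.83, adjusted p = 0.0321) were called too, which made 5 of 30, against 39.3% of all genes in that fit. Podocytes make Lama5 and Lamb2, and 11 of 12 tested podocyte markers were higher in the same libraries; the part of those cells in the laminin difference was not tested.

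After injury no member was called between the fractions (limma), with 1, 2 and 3 members at an unadjusted p under 0.05 on days 2, 7 and 14, and 1.68%, 2.35% and 0.816% of all genes called. With the mouse as a block, 3 of 30 members were called on day 2, all higher in bound RNA, against 9.5% of all genes, a share near the background. Col1a1 differed by 1.43 (SE 0.31, adjusted p = 0.0151), Col5a2 by 1.33 (adjusted p = 0.0118) and Lama5 by 1.01 (adjusted p = 0.0202). The day 2 libraries of Lama5 were at 7.18, 6.57 and 6.17 RPKM in bound and 2.40, 2.90 and 3.99 RPKM in unbound RNA. Those of Col5a2 were at 5.38, 12.4 and 2.88 RPKM in bound and 2.01, 2.44 and 1.69 RPKM in unbound RNA, with no overlap and with bound above unbound in each of the 3 mice.

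On day 7, where the block called 11.4% of all genes, it gave Lamb3 as higher in bound RNA (0.98, adjusted p = 0.0410) and Col15a1 (-0.89, adjusted p = 0.0187) and Col4a4 (-0.71, adjusted p = 0.0388) as lower. Col15a1 was at 4.98, 2.46 and 3.15 RPKM in day 7 bound RNA and at 8.43, 5.49 and 6.60 RPKM in unbound RNA, with no overlap. On day 14 Lamb3 alone was called with the block, against 2.62% of all genes (1.34, adjusted p = 0.0237), at 1.87, 0.938 and 5.31 RPKM in bound and 0.368, 0.348 and 1.17 RPKM in unbound RNA. Without both libraries of the third day 14 mouse and with no block, that difference was 1.10 (adjusted p = 0.3295). Lamb3 was higher in the bound than in the unbound library of all 12 mice.

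The change from sham was not called as different between the fractions for any member on day 2, 7 or 14 (limma interaction terms), with 0, 1 and 1 members at an unadjusted p under 0.05 and 0%, 0.146% and 0.197% of all genes called. The 2 members were Col4a4 on day 7 (-0.69, unadjusted p = 0.0417) and Lamb2 on day 14 (-1.19, unadjusted p = 0.0181). Without both libraries of the third day 14 mouse, the Lamb2 interaction on day 14 was -1.47 (adjusted p = 0.0442). For that interaction the refit called 2.121% of all genes higher and 2.915% lower. Lamb2 was the only member called there, so the members did not stand above the background. For Col1a1 the day 2 rise of 5.01 in bound and 3.85 in unbound RNA is thus not shown to differ.

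Genes that make, partner or read collagen and laminin were counted beside the members. Of 32 tested genes for collagen folding, modification and cross-linking, 9 were called higher and 0 lower in bound RNA on day 2, with a median of 0.83 against 0.16 for all genes and with 13.3% of all genes called higher. They included Crtap (1.15, adjusted p = 0.000312), a subunit of the prolyl 3-hydroxylase complex, P4hb (1.03), the disulfide isomerase subunit of prolyl 4-hydroxylase, Fkbp10 (2.04), a collagen chaperone, and Loxl4 (1.4), a lysyl oxidase that cross-links collagen. On day 7 there were 7 of 32, against 15.2% of all genes, with Serpinh1 (1.87, adjusted p = 0.0160), the collagen chaperone HSP47. On day 14 there were 5, against 8.71%, and without both libraries of the third day 14 mouse 2 were higher and 3 lower, against 20.8% of all genes called. In unbound RNA 4 were called higher on day 2, a share near the 9.76% of all genes, among them Sparc (2.22, adjusted p = 0.0111), a collagen-binding matricellular protein, and Fkbp10 (2.50).

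Of 19 tested partners in the basement membrane 2 were called higher in bound RNA on day 2 and 0 lower, a share under the 13.3% of all genes, with a median of -0.08. These were Tinagl1 (1.49, adjusted p = 0.00976) and the elastic fibre protein Fbln2 (1.58). Smoc1 was called lower on day 7 in bound RNA (-1.03), and Ntn1, which encodes netrin-1, on day 2 in unbound RNA (-1.05). In sham kidneys Hspg2, which encodes perlecan, was higher in bound than unbound RNA (1.25, adjusted p = 0.0312). Smoc2, a matricellular calcium-binding protein, was called on day 14 in bound (2.72) and unbound RNA (3.17), and without both libraries of the third day 14 mouse as well (1.83 and 2.6, adjusted p = 0.0319 and 0.0458). Of 18 tested receptors for collagen and laminin 7 were called higher in bound RNA on day 2 and 0 lower, and 8 and 0 in unbound RNA, against 13.3% and 9.76% of all genes called higher. The syndecan Sdc1 rose by 2.20 in bound (adjusted p = 0.000189) and 2.41 in unbound RNA, and the integrin subunits Itgb1 (1.55), Itga6 (1.16), Itgb4 (1.25) and Itga3 (1.20), which together form the laminin-binding integrins of epithelia, were called in bound RNA.

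Markers of fibroblasts, pericytes and other stroma, the cells best known for fibrillar collagen, are given beside these results. Their summed level over the 18 genes found was 96.5 to 184 RPKM in sham bound RNA and 222 to 433 RPKM on day 2, and 67.0 to 79.7 and 275 to 516 RPKM in unbound RNA. Of 15 tested stromal markers 2 were called higher on day 2 in bound RNA, the contractile genes Acta2 (1.90, adjusted p = 0.0227) and Tagln (1.94), and 3 in unbound RNA. The share in bound RNA equalled the 13.3% of all genes called higher there, while 9.76% of all genes were called higher in unbound RNA. The median estimate of the 15 markers on day 2 was 1.065 in bound and 0.902 in unbound RNA, against 0.157 and 0.196 for all genes. Meox2 was listed at 0 in all libraries. On day 14 the bound sums were 119, 83.6 and 584 RPKM, so the third mouse alone lay above the sham bound range. Mfap4, Mfap5, Lum and Thy1 were called there, and without both libraries of that mouse Mfap4 alone was (2.22, adjusted p = 0.00905). Macrophage markers summed to 177 to 317 RPKM in sham bound RNA, 145 to 423 RPKM on day 2, 982 to 1599 RPKM on day 7 and 669.7 to 4899 RPKM on day 14, where the third mouse was again the highest. Of 14 macrophage markers 7 were called higher in bound RNA on day 7 and 7 on day 14, against 15.2% and 8.71% of all genes. Without both libraries of that mouse 5 were called higher on day 14, against 11.04% of all genes. Other markers were called lower in bound RNA. On day 7, against 7.55% of all genes, these were 6 of 12 podocyte, 4 of 14 endothelial and 6 of 10 collecting duct and distal tubule markers, with medians of -1.35, -0.74 and -1.47. On day 2, against 6.48%, they were 4 of 12 proximal tubule and 4 of 10 collecting duct and distal tubule markers. The part of these cells in the collagen results was not tested.

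The 25 members that were not tested comprised 24 collagens and Lama2, the alpha chain of muscle laminin. Their medians over the 24 libraries were at or under 0.1 RPKM for 18 of the 25, and Col9a1, a cartilage chain, was listed at 0 everywhere. The highest value lay in a library of the third day 14 mouse for 14 of the 25. Col12a1, a fibril-associated collagen, was at 6.05 RPKM there at its highest and at 0.786 RPKM or less in the libraries of the other mice. Col26a1 was an exception, with its highest value of 3.59 RPKM in the third sham bound library.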

How the data were processed

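The deposited table gives 1 RPKM value per gene for each of 24 libraries. The tools named in the submitters' processing notes are the aligner STAR (2.0.4b), the counter featureCounts (1.4.5, with Subread) and edgeR, with no role stated for each; the genome build was not given in the sources used here. Of 41831 lines, 1081 repeats with identical values were dropped, which left 40750 genes, 14673 of them at 0 in every library. Low RPKM values fell on steps of whole reads for 73.8% to 78.1% of values of up to 50 reads (within 0.02 reads, where chance gives 4%), which gave the depths of 15720000 to 24650000 reads; gene lengths came from GENCODE M21.

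Testing was limited to genes that reached 1 RPKM in 3 or more libraries and used limma 3.58.1 in R 4.3.3, on log2(RPKM + 0.5), with 8 group means fitted to all 24 libraries, a mean-variance trend and Benjamini-Hochberg adjustment within each of 17 comparisons. The script was tested on simulated data with known changes. The mice of a group are separate animals per the labels. Same-numbered bound and unbound libraries come from 1 mouse, and the correlation of their deviations from group means was 0.268 to 0.67 over all 12 pairs, so values with the mouse as a block are given where they change a call. Chain ratios were compared with exact permutation tests over libraries (scipy 1.17.1), which did not use the pairing of bound and unbound libraries. Alternatives covered the pseudocount, the filter, rescaling, the libraries fitted, the block and each library left out. Genes given library by library were fixed as the fibrillar, type IV, VI, XV and XVIII and laminin chains, with the most changed called members and up to 4 genes of each other list with the smallest p. The members and lists were chosen with earlier results of these data known. Of the 30 tested members, 1 is not reported here by name.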

Additional observations from a re-analysis of the deposited data

How the results depend on the processing

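No direction of a called value reversed under the alternatives run. For unbound RNA on day 7 against sham, 2 members were called, and 6 with a pseudocount of 0.1, 1 with a pseudocount of 1, 0 with no filter, 4 after median-ratio rescaling, 0 after quantile normalization, 18 with only the groups compared and 4 with a replicate block. For unbound RNA on day 14, 6 were called, and 2 with a pseudocount of 1, 1 with no filter, 2 after quantile normalization and 0 with only the groups compared. With no filter the bound counts were 5 on day 7 and 3 on day 14. With only the groups compared they were 3 on day 2 and 0 on day 14 in bound RNA, 17 on day 2 in unbound RNA, and 1 each for day 7 against day 2 in unbound RNA and for bound against unbound RNA in sham kidneys and on day 7. Quantile normalization gave 1 call for bound against unbound RNA on day 14. The mouse as replicate block gave 5, 3, 3 and 1 calls for bound against unbound RNA in sham kidneys and on days 2, 7 and 14. Between times the block joins mice that share only a number and gave 1 call for day 7 against day 2 in bound RNA; deviations of same-numbered libraries correlated from -0.212 to 0.369 there, and over 0.1 in every pair only for day 14 against day 7 in bound RNA, where the block changed no call. Without both libraries of the third day 14 mouse 3 members were called on day 14 in bound RNA and 1 in the day 14 interaction. With 1 library left out, calls against sham ranged from 5 to 15, 2 to 5 and 2 to 10 on days 2, 7 and 14 in bound RNA and from 2 to 9, 0 to 0 and 0 to 6 in unbound RNA. They ranged from 0 to 3 for bound against unbound RNA in sham kidneys, 0 to 1 for day 7 against day 2 in each fraction and 0 to 2 for the day 14 interaction. The cause of these changes was not tested. Against sham the median of all genes was shifted by 0.13 to 0.22 (log2), and by -0.03 to 0.01 after median-ratio rescaling; 67.0% of all calls against sham were higher on the deposited scale, 47.5% for median-ratio rescaling and 49.7% for quantile normalization. After median-ratio rescaling the members' medians were 0.997, 0.53 and 0.65 in bound and 1.01, 0.79 and 0.86 in unbound RNA on days 2, 7 and 14. Few reads limit Col5a3 and Lamb3 in unbound RNA in their lowest libraries, and many of the members not tested. Long genes held more reads at the same RPKM. Of the members not tested, Col12a1 held an inferred 52 to 1588 reads per library and Lama2 27 to 516.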
